A study of Mus musculus with 6 samples.

Results

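The genes described here are 10 surface receptors and ion channels of B lineage cells that sense sphingosine 1-phosphate (S1P), oxysterols, lysophospholipids and extracellular ATP. They are S1pr1, S1pr2, S1pr3, S1pr4, Gpr183, Gpr174, Gpr132, P2ry10, P2rx4 and P2rx7. Every probe set of the array whose annotated symbol was one of these was used, which gave 21 of 45037 probe sets, and all 10 genes were measured among 18193. Expression was measured on 1-colour Affymetrix arrays in 3 samples of plasma cells from mouse bone marrow, sorted as B220- CD138+, and in 3 samples of B cells from spleen, sorted as B220+ CD23+. All mice were of the C57BL/6 strain. The plasma cells came from mice boosted 7 days earlier with the protein antigen KLH, were enriched with beads against CD138 before the sort, and entered the assay as 50000 to 70000 cells. The B cells were naive and called mature follicular in the title, and 2000000 to 3000000 were used. Tissue, boost, bead enrichment and cell input therefore changed together with the cell type and cannot be told apart from it. Whether the replicates are separate mice is not stated in the labels, so the p-values cover only the variation among these 6 samples, part of which may be technical, and with 3 arrays a group the precision is low.

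S1P is abundant in blood and lymph and scarce in tissue, and lymphocytes leave an organ by following that gradient through S1pr1. S1pr2 has the opposite action, since it signals through G proteins of the G12 family and holds cells in place. Oxysterols made by stromal cells draw B cells to the edges of the follicle through Gpr183. Extracellular ATP opens the P2X channels, and cell surface enzymes degrade it to adenosine.

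Each array gave 1 intensity per probe set on a linear scale. Intensities of different probe sets are not comparable with each other, so single levels are set side by side only within a probe set. Cell type markers are also summed over the same probe sets on each array, and the brightest weigh most in such a sum. The level seen without a target was taken as the 95th percentile of 27 bacterial control probe sets, between 23.0 and 41.8 on the 6 arrays, and is called background below. Fold changes are differences of mean log2(intensity + 16), plasma cells minus B cells, given with the standard error (SE) of the limma fit over all 45037 probe sets, and they understate the change of dim probe sets. A probe set was called at a Benjamini-Hochberg adjusted p of 0.05 or less. Because the samples are bulk populations, fewer cells that express a gene and less RNA per cell cannot be told apart.

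The labels matched the sort markers. Sdc1, which encodes CD138, averaged 12911 ± 282 in plasma cells, against 1072 ± 107 in B cells (SD, n = 3 each), and Fcer2a, which encodes CD23, averaged 48.1 ± 4.0 in plasma cells, against 6032 ± 868 in B cells. Ptprc, of which B220 is an isoform, had a log2 fold change of -1.15. All 6 measured plasma cell markers were called higher and all 6 measured B cell markers lower. The array of B cell sample 1 stood apart. Its log2 values correlated with those of the other B cell arrays at 0.933 and 0.926 across probe sets, where those 2 arrays correlated with each other at 0.992. On it the 11 T and NK cell markers lay above the mean of B cell arrays 2 and 3 by a median of 2.65 on the log2 scale, the 8 granulocyte markers by 2.41 and the 5 erythroid markers by 2.21. Cd2 went the other way, at 4717 there, against 6953 and 7154 on B cell arrays 2 and 3. The granulocyte marker Mpo did as well, at 31.7 on B cell array 1, below background there, against 62.9 and 64.2. Xist was at 8408 on that array, at 30.8 and 18.1 on B cell arrays 2 and 3, and between 8070 and 8702 on the plasma cell arrays. The Y-linked gene Kdm5d mirrored it, at 8.84, 7.89 and 3.00 on the plasma cell arrays and at 3.57, 1507 and 1576 on the B cell arrays. B cell arrays 2 and 3 thus differed in both sex-linked genes from the other 4 arrays, and the labels do not give the sex of the mice. Without B cell array 1, cell type cannot be told apart from sex as these 2 genes show it, which holds for every value given without that array.

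Of the 21 receptor probe sets 5 were called higher in plasma cells, 11 were called lower and 5 were not called. Among all probe sets 26.2% were called, 13.4% higher and 12.8% lower. The share called higher among the receptor probe sets was 23.8% and the share called lower 52.4%. The median log2 fold change was -0.98 over the 21 and -0.13 over all probe sets. The arrays of the 2 groups did not overlap for 16 of the 21 (76.2%), against 45.4% of all probe sets, of which 20.8% lay wholly above and 24.6% wholly below in plasma cells. An exact permutation test of 3 arrays against 3 cannot give a two-sided p below 0.1, and it gave 0.1 for each of these 16. By their brightest probe set, S1pr2 and P2rx4 were called higher, S1pr1, S1pr3, S1pr4, Gpr183, Gpr174, Gpr132 and P2ry10 lower, and P2rx7 was not called. Of the 21 probe sets 19 lay over background on at least 3 arrays. The 2 others, 1 each of S1pr3 and P2rx7, are described with their genes. All 16 calls held without B cell array 1.

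**Figure D1:**
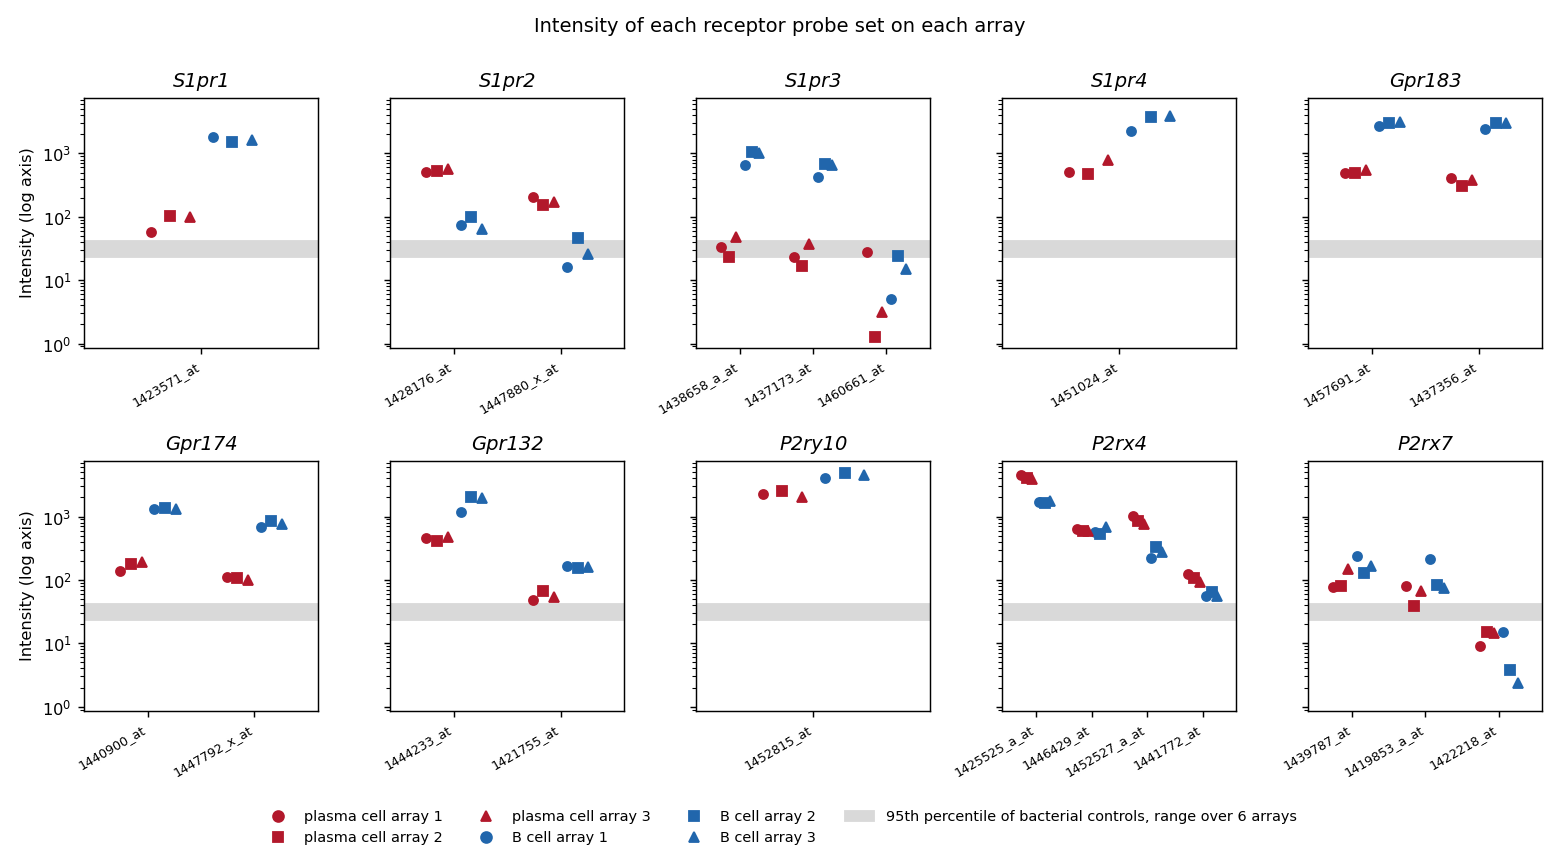
Intensity on a log axis for each of the 21 receptor probe sets, 1 panel per gene, with the 3 plasma cell arrays in red left of the 3 B cell arrays in blue; the grey band spans background over the 6 arrays. S1pr2 lies higher on all plasma cell arrays, S1pr1, S1pr4, Gpr183, Gpr174, Gpr132 and P2ry10 lie lower, and the probe sets of S1pr3, P2rx4 and P2rx7 are not alike within their gene.

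The S1P receptors moved in both directions. S1pr1, the egress receptor, was measured by 1 probe set, with intensities of 58.5, 104 and 101 on the plasma cell arrays, against 1785, 1522 and 1615 on the B cell arrays. Every plasma cell array was far below every B cell array, yet all 3 were still over background. The log2 fold change was -4.02 ± 0.22 SE (adjusted p = 0.000158 by limma), which placed the probe set in the lowest 0.233% of all log2 fold changes.

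Among the 4 S1P receptors described here, S1pr2, which holds cells in place, was the only one called higher. Its brighter probe set, 1428176_at, had 510, 523 and 563 on the plasma cell arrays, against 74.4, 98.5 and 65.2 on the B cell arrays. The groups were separate and the plasma cell arrays close together, and the log2 fold change was 2.54 ± 0.17 SE (limma adjusted p = 0.000272). The dimmer probe set, 1447880_x_at, had 206, 152 and 170 on the plasma cell arrays, against 15.9, 45.5 and 26.3 on the B cell arrays, 2 of which were over background. It was called higher too, by 2.13 ± 0.27. Its suffix x marks a probe set with probes that can also match other transcripts.

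S1pr3, known in mouse spleen from marginal zone B cells, gave 3 probe sets that did not behave alike. The brightest, 1438658_a_at, had 33.1, 22.9 and 47.3 on the plasma cell arrays and 663, 1046 and 1000 on the B cell arrays. Its plasma cell values were around background, over it on 2 arrays, and its log2 fold change was -4.19 ± 0.26 SE (limma adjusted p = 0.000214). With 1 added in place of 16 the same change was -4.70 and with 64 added -3.28, so its size depends on the constant. Probe set 1437173_at had 23.3, 16.9 and 37.5 in plasma cells, all at or below background, and 418, 674 and 665 in B cells. It was at least 18.8-fold lower in plasma cells with the plasma cell arrays set to background (log2 fold change -3.84 ± 0.27, limma adjusted p = 0.000317). The third, 1460661_at, was near or below background in both groups, at 27.5, 1.29 and 3.15 in plasma cells, against 5.11, 23.8 and 15.2 in B cells. It was over background on 1 array of each group and was not called (limma adjusted p = 0.658).

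S1pr4, a receptor found mainly on blood cells, had 511, 477 and 797 on the plasma cell arrays and 2281, 3735 and 3940 on the B cell arrays. The groups did not overlap, and B cell array 1 was the lowest of its group. The log2 fold change was -2.45 ± 0.30 SE (limma adjusted p = 0.00221), and -2.69 without that array.

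The promoters of S1pr2 and S1pr3 are shown because the 2 receptors changed in opposite directions. RefSeq promoters (build GRCm38.p6, 250 bases before to 50 after the transcription start) were found for 9 of the 10 genes, all except S1pr1, 11 promoters in all. They were searched on both strands for CACCC, the core of the site bound by KLF factors, and GAGGAA, the site bound by ETS factors such as PU.1. CACCC was in 8 of the 11 and in 57.5% of all 32851 promoters, and GAGGAA in 5 of the 11 and in 28.3% of all. Capitals mark the matches, which did not overlap each other. The S1pr2 promoter at chr9:20976744-20977043 (minus strand) held 1 CACCC match, read as GGGTG on the gene's strand, 98 bases before the start. The S1pr3 promoter at chr13:51408368-51408667 (plus strand) held 2 CACCC matches and 1 GAGGAA match, the last 115 bases before the start.
S1pr2: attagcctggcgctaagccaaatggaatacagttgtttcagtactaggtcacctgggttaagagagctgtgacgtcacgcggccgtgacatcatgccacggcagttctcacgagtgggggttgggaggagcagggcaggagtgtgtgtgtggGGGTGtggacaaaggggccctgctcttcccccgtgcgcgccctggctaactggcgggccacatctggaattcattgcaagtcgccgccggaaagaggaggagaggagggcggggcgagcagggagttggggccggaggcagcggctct
S1pr3: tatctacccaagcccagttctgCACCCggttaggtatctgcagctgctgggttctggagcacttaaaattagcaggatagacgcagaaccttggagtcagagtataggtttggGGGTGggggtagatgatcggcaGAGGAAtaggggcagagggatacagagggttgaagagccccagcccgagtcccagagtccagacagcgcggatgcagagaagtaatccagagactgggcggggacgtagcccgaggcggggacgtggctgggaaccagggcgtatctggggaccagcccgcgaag

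Klf2, the transcription factor that activates S1pr1 in lymphocytes, was uneven. It had 317, 173 and 2762 on the plasma cell arrays and 3311, 6273 and 6544 on the B cell arrays. Plasma cell array 3 lay near the B cell arrays, and Klf2 was not called (log2 fold change -3.21 ± 1.00 SE, limma adjusted p = 0.0628). It was called in 5 of 17 alternatives, 1 of them without that array (log2 fold change -4.36, adjusted p = 0.004). On plasma cell arrays 1 and 2 S1pr1 was at 58.5 and 104, and on plasma cell array 3 it was at 101. Whether S1pr1 followed Klf2 was not tested. Cd69, whose protein removes S1pr1 from the surface, was also highest on that array, with 1997, 1715 and 4451 in plasma cells, against 3424, 4087 and 3916 in B cells. It was not called (-0.61, adjusted p = 0.282), and without plasma cell array 3 it was called lower (-1.03, adjusted p = 0.0185). On plasma cell array 3 the 11 T and NK cell markers lay 0.67 above the mean of the other 2 plasma cell arrays as a median on the log2 scale, and the 6 measured B cell markers 0.01 above it. The part of these in the values of Klf2 and Cd69 was not tested.

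Of 8 measured genes that set the transcription or surface level of S1P receptors 1 was called higher and 4 were called lower, with a median log2 fold change of -1.31. Over all genes, taken by their brightest probe set, 16.6% were called higher and 11.4% lower and the median was -0.06. The receptor kinases were split. Grk5 was higher by 1.80 ± 0.37 SE, while Grk3 was lower (-2.46 ± 0.40), as was Grk6 (-1.16). The arrestins Arrb1 (-1.47) and Arrb2 (-1.59), which end signalling of receptors at the membrane, were both lower. The calls of Grk5 and Arrb2 were lost without single arrays, with limma adjusted p up to 0.0671 and 0.0687.

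In the transmission chain of S1pr2, the G protein subunit Gna13 had 5049, 4863 and 4831 in plasma cells, against 6431, 6121 and 6219 in B cells. The groups were separate but the change was small and was not called (-0.35 ± 0.12 SE, limma adjusted p = 0.0844), though 5 of 17 alternatives called it. Gnai2, the Gi subunit used by S1pr1 and Gpr183, was not called (-0.51 ± 0.16, adjusted p = 0.0603). Its call depended on the setting, with adjusted p from 0.00127 to 0.4 over the alternatives. Of the 9 measured G alpha subunits 1 was called higher, Gnaq (0.78 ± 0.16), and 0 were called lower by limma (median log2 fold change -0.35). At an unadjusted p under 0.05 there were 1 higher and 3 lower. Without B cell array 1 there were 1 called higher and 4 called lower. Leaving that array out raised the calls over all 45037 probe sets too, from 6036 to 8155 higher and from 5761 to 9331 lower. Every list count given without it is to be read beside that rise. The call of Gnaq was lost in 4 of 16 alternatives, with an adjusted p up to 0.0637.

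Among 15 genes that make, degrade or carry S1P and its precursors 4 were called higher and 2 lower (median log2 fold change 0.35), and 7 higher and 4 lower without B cell array 1. Sgpp2, an S1P phosphatase, had 445, 513 and 557 in plasma cells, against 40.2, 14.3 and 28.1 in B cells, where it lay over background on 1 array (3.62 ± 0.25 SE, limma adjusted p = 0.000305). The ceramidase Acer3 was higher by 1.30 ± 0.15, which was not called once its probe sets were averaged (adjusted p = 0.242). The ceramidases Asah1 (0.91) and Asah2 (1.08) were the other 2 called higher. Plpp3, a lipid phosphatase, had 52.3, 20.8 and 63.3 in plasma cells, against 566, 635 and 608 in B cells (-3.41 ± 0.30, adjusted p = 0.000696). The S1P exporter Spns2 was lower too (-1.98 ± 0.39), a call lost without B cell array 2 (adjusted p = 0.0529). Of the S1P kinases, Sphk1 was over background on 1 array of each group (limma adjusted p = 0.359). Sphk2 was over background on 3 arrays of each group, at 684 ± 40.3 in plasma cells, against 673 ± 262 in B cells (adjusted p = 0.839). The S1P lyase Sgpl1 was at 1784 ± 225 in plasma cells, against 1611 ± 345 in B cells (adjusted p = 0.616).

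**Figure D2:**
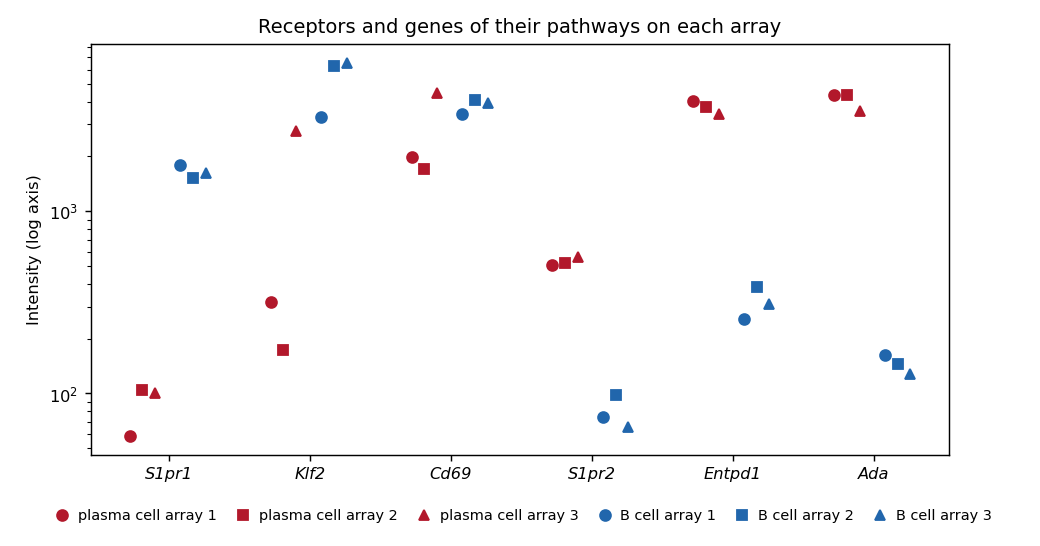
Intensity on a log axis on the 3 plasma cell arrays (red, left) and the 3 B cell arrays (blue, right) for 2 S1P receptors by their brightest probe set and for genes of the S1P and purine pathways; levels are comparable within a gene only. Klf2 and Cd69 are highest in plasma cells on array 3, at 2762 and 4451. S1pr1 is at 58.5, 104 and 101 on plasma cell arrays 1, 2 and 3.

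Gpr183, also called EBI2, the receptor for dihydroxylated cholesterol, was lower in plasma cells by both its probe sets. The brighter, 1457691_at, had 497, 498 and 556 on the plasma cell arrays and 2675, 2982 and 3125 on the B cell arrays. The other, 1437356_at, had 403, 310 and 377 in plasma cells, against 2408, 3029 and 3043 in B cells. In both the groups were far apart, and all plasma cell arrays were well over background, so the transcript was still detected there. The log2 fold changes were -2.46 ± 0.14 and -2.90 ± 0.17 SE (limma adjusted p = 0.000157 and 0.000185).

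The ligand of Gpr183 is made by Ch25h and Cyp7b1. Ch25h, which makes its precursor, had 68.2, 70.3 and 83.8 in plasma cells, against 36.1, 69.8 and 42.8 in B cells, a difference that was not called (limma adjusted p = 0.164). Cyp7b1, which completes the ligand, was at or below background on all 6 arrays. Of 7 measured genes listed for oxysterol synthesis and breakdown, the receptor gene Nr1h3 included, 0 were called higher and 2 lower by limma. At an unadjusted p under 0.05 there were 1 higher and 2 lower (median log2 fold change -0.01). The calls were 1 higher and 2 lower without B cell array 1. The 2 called lower with all arrays were the sterol hydroxylases Cyp27a1, at 160 ± 35.0 in plasma cells, against 1115 ± 159 in B cells (-2.69 ± 0.21), and Cyp39a1 (-2.26 ± 0.37). Cyp27a1 was called lower in all 17 alternatives, but its log2 fold change ran from -2.83 to -1.25 over them.

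In the RefSeq gene table Gpr183 lies next to Gpr18, another G protein-coupled receptor, on chromosome 14. Gpr18 was lower as well (-1.04, limma adjusted p = 0.0114).

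Gpr174 and P2ry10 are receptors for lysophosphatidylserine, although the name of P2ry10 places it among nucleotide receptors, and Gpr132 responds to oxidised fatty acids and lysolipids. All 3 were lower in plasma cells. For Gpr174 probe set 1440900_at had 139, 175 and 191 on the plasma cell arrays and 1299, 1381 and 1333 on the B cell arrays. The second probe set, 1447792_x_at, had 112, 108 and 99.6 in plasma cells, against 682, 840 and 751 in B cells. Both separated the groups widely with little spread within them, with log2 fold changes of -2.88 ± 0.16 and -2.65 ± 0.14 SE (limma adjusted p = 0.000147 and 0.00014). The suffix x of the second again marks probes that can also match other transcripts.

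Gpr132 was lower by less. Probe set 1444233_at had 451, 411 and 469 in plasma cells, against 1174, 2025 and 1985 in B cells, and probe set 1421755_at had 48.6, 67.2 and 54.3 in plasma cells, against 168, 156 and 162 in B cells. In the first, B cell array 1 lay well below the other B cell arrays, but still above all plasma cell arrays. The log2 fold changes were -1.88 ± 0.24 and -1.30 ± 0.15 SE (limma adjusted p = 0.0027 and 0.00173).

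P2ry10 had 2265, 2542 and 2012 on the plasma cell arrays and 4016, 4929 and 4516 on the B cell arrays. The groups did not overlap, and this was the smallest change among the receptor probe sets called lower (-0.98 ± 0.16 SE, limma adjusted p = 0.00625). The call was lost after median centring of the arrays, with a log2 fold change of -0.86 and an adjusted p of 0.0661. That centring moved the median of all log2 fold changes to -0.01, against -0.13 as deposited.

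In the order of the RefSeq gene table P2ry10, P2ry10b and Gpr174 follow each other on chromosome X. P2ry10b, the paralog between them, had 289, 320 and 273 in plasma cells, against 1036, 1180 and 1137 in B cells (-1.87 ± 0.14 SE, limma adjusted p = 0.000347), so these 3 were all lower. The genes on either side of them were not. Itm2a, next to Gpr174, was higher (1.96 ± 0.21, adjusted p = 0.0014). Lpar4, next to P2ry10, had 137, 169 and 126 in plasma cells, against 959, 19.9 and 8.85 in B cells, with no call (0.74, adjusted p = 0.734). Without B cell array 1 it was called higher (2.41, adjusted p = 0.00103). On the B cell arrays, which differed in Xist, the X-linked Gpr174 lay between 1299 and 1381 in its brighter probe set. B cell array 1, which was high in Xist, also stood apart in cell type markers, and the part of sex in the Gpr174 values was not tested. The promoter of Gpr174 at chrX:107284096-107284395 (plus strand), shown as that of a receptor called lower by both its probe sets, had CACCC 240 bases before the start and GAGGAA after the start, in capitals. Both motifs were also in the promoter of S1pr3 and in both promoters of P2rx7, which was not called.
Gpr174: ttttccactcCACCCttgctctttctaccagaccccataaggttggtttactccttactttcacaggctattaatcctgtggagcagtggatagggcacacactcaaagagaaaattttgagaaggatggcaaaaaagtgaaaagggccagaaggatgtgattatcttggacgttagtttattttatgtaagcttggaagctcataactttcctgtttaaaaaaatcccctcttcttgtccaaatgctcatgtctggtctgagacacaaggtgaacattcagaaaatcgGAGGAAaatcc

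Of 11 other measured receptors for lysolipids and protons 2 were called higher and 3 lower (median log2 fold change -0.27), and 3 higher and 4 lower without B cell array 1. Gpr65, a proton sensor related to Gpr132, was at 1497 ± 194 in plasma cells, against 751 ± 83.4 in B cells (0.98 ± 0.16 SE). Gpr4, of the same family, was at or below background on all B cell arrays and averaged 90.1 ± 4.3 in plasma cells, at least 3.14-fold higher there (limma adjusted p = 0.00014). Besides P2ry10b, the lysophosphatidylserine receptor Gpr34 (-1.45 ± 0.40) and the lysophosphatidic acid receptor Lpar6 (-0.50) were called lower. The call of Gpr34 was lost in 7 of 17 alternatives, with an adjusted p up to 0.138.

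**Figure D3:**
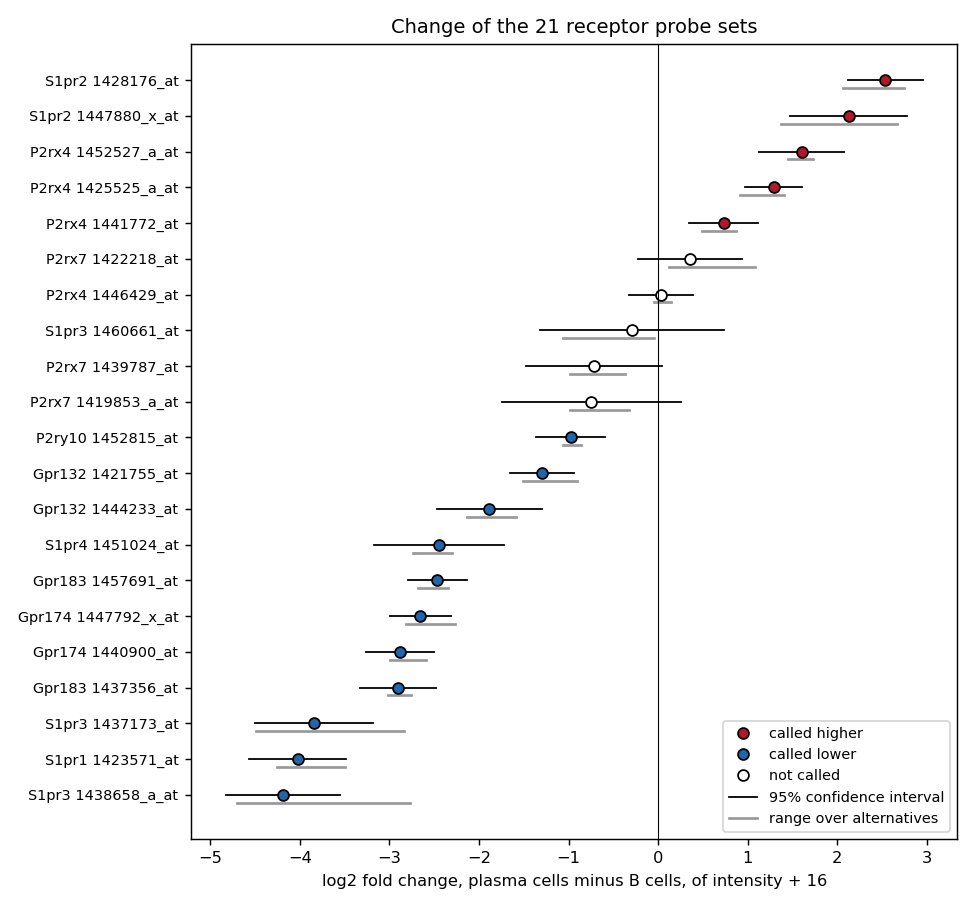
The log2 fold change of intensity + 16, plasma cells minus B cells, for the 21 receptor probe sets (points, with 95% confidence intervals in black), and in grey its range over the alternative settings; red is called higher, blue called lower and white not called. S1pr2 (2.54) stands at one end and S1pr3 (-4.19) and S1pr1 (-4.02) at the other.

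Of the ATP-gated channels P2rx4, a channel held largely in lysosomes, was called higher by 3 of its 4 probe sets. The brightest, 1425525_a_at, had 4506, 4104 and 3914 on the plasma cell arrays and 1683, 1621 and 1776 on the B cell arrays, 2 narrow groups far apart (1.29 ± 0.13 SE, limma adjusted p = 0.00112). Probe set 1452527_a_at had 1001, 840 and 769 in plasma cells, against 225, 332 and 276 in B cells (1.60 ± 0.19, adjusted p = 0.00214). Probe set 1441772_at was dim, with 126, 106 and 91.4 in plasma cells, against 55.4, 64.2 and 55.1 in B cells (0.73 ± 0.16, adjusted p = 0.0185). Its groups did not overlap, but its call was lost in 7 of 15 alternatives, with an adjusted p up to 0.0756.

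The fourth probe set of P2rx4, 1446429_at, showed no separation. It had 636, 583 and 591 in plasma cells, against 577, 527 and 675 in B cells. The log2 fold change was 0.03, with a 95% confidence interval from -0.33 to 0.39, which lies below the log2 fold changes of the other 3 probe sets. The interval of the dim probe set 1441772_at, from 0.35 to 1.11, overlapped it. Why the probe sets differ was not tested.

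P2rx7, the channel that opens at high ATP and can kill lymphocytes, was not called by any of 3 probe sets. Probe set 1439787_at had 77.3, 81.2 and 149 in plasma cells, against 239, 129 and 164 in B cells, and probe set 1419853_a_at had 81.3, 39.2 and 67.1 in plasma cells, against 213, 84.2 and 75.4 in B cells. The groups overlapped in both, and B cell array 1 was the highest of the 6 in both. The log2 fold changes were -0.72 (95% confidence interval -1.48 to 0.04) and -0.74 (-1.75 to 0.26), with limma adjusted p of 0.15 and 0.244, so a decrease of the size seen for P2ry10 lies within both intervals. Without B cell array 1 they were -0.50 and -0.33. The summed level of the 11 T and NK cell markers was 1853 to 3244 in plasma cells, against 7436 to 11138 in B cells, highest on B cell array 1, where 10 of the 11 were over background. Cd2 made up most of it on B cell arrays 2 and 3. Without Cd2 the sums were 1245, 1250 and 2503 in plasma cells, against 6422, 483 and 549 in B cells, so only B cell array 1 lay above the plasma cell arrays. Between 8 and 10 of the 11 were over background on every array, and the part of such cells in the P2rx7 values was not tested. The third probe set, 1422218_at, was at or below background on all 6 arrays, between 9.13 and 15.0 in plasma cells, and between 2.40 and 15.1 in B cells. It was not called (0.35, adjusted p = 0.331). Without B cell array 1 its adjusted p was 0.0234, at levels still within background in both groups.

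P2rx7 and P2rx4 are neighbours in the RefSeq gene table, on chromosome 5, followed by Camkk2. That gene was lower in plasma cells (-2.53 ± 0.25 SE, limma adjusted p = 0.00105), so P2rx4 was called higher between a gene that was not called and a gene called lower. The promoter of P2rx4 at chr5:122707294-122707593 (plus strand) is shown as that of the second receptor called higher. It held 2 CACCC matches, 54 and 47 bases before the start, and no GAGGAA.
P2rx4: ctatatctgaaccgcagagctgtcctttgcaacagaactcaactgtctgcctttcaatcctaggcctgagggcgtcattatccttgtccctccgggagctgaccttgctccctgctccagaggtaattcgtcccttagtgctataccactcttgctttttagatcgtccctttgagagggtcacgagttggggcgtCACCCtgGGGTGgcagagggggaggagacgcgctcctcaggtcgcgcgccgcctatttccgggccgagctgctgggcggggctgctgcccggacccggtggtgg

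Of 13 other measured purinergic receptors 2 were called higher and 0 lower by limma, with a median log2 fold change of 0.28, and at an unadjusted p under 0.05 there were 2 higher and 2 lower. The calls were 2 higher and 1 lower without B cell array 1. P2ry14, the receptor for UDP-glucose, had 499, 395 and 604 in plasma cells, against 18.1, 23.3 and 21.9 in B cells, over background there on 1 array (3.78 ± 0.19 SE, adjusted p = 0.000118). P2rx3, an ATP-gated channel known from sensory neurons, had 378, 293 and 441 in plasma cells, against 10.3, 13.97 and 15.8 in B cells. All its B cell values were within background, and it was at least 12.8-fold higher in plasma cells (adjusted p = 0.000127).

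Of 11 measured genes that handle extracellular nucleotides and NAD, most of them enzymes, 2 were called higher and 1 lower (median log2 fold change 0.36). The calls were 2 higher and 2 lower without B cell array 1. Entpd1, or CD39, which degrades ATP and ADP at the cell surface, had 4011, 3748 and 3414 in plasma cells, against 257, 383 and 310 in B cells (3.50 ± 0.18 SE, limma adjusted p = 0.000131). Ada, which deaminates adenosine, had 4371, 4333 and 3550 in plasma cells, against 162, 146 and 127 in B cells (4.67 ± 0.16, adjusted p = 5.51e-05). Nt5e, or CD73, which acts between them by making adenosine from AMP, was not called, at 110, 104 and 64.7 in plasma cells, against 332, 97.4 and 71.3 in B cells (adjusted p = 0.543). Its highest value was on B cell array 1, and without that array the log2 fold change was 0.11, against -0.50 with it. Entpd5, an enzyme of the endoplasmic reticulum in spite of its family name, was lower (-0.96 ± 0.21), a call that was lost in 8 of 17 alternatives, with an adjusted p up to 0.122.

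Of 9 measured genes of the response to P2rx7, 3 were called higher and 2 lower (median -0.18), and 3 higher and 3 lower without B cell array 1. The inflammasome adaptor Pycard had 6535, 6624 and 7523 in plasma cells, against 1609, 1463 and 1375 in B cells (2.21 ± 0.14 SE, limma adjusted p = 0.000219). The cytokine gene Il18 (1.20 ± 0.19) and Nek7 (0.68 ± 0.12) were higher as well. The pore protein gene Gsdmd (-1.09 ± 0.17) and Il1b (-1.39 ± 0.37) were lower. Il1b was dim in plasma cells, at 45.6, 28.7 and 56.5, against 239, 113 and 92.1 in B cells. Its call was lost in 5 of 17 alternatives, with an adjusted p up to 0.125. The summed level of the 8 granulocyte markers was 8460 to 19946 in plasma cells, against 1916 to 12745 in B cells, and without its largest member, S100a9, 4445 to 10897 in plasma cells, against 969 to 6507 in B cells. Of the 8 granulocyte markers 1 was called higher, Mpo (1.49), and 1 lower, Csf3r (-2.19), with a median log2 fold change of 1.68. Without B cell array 1 there were 6 called higher and 1 lower. The summed level of the 8 monocyte and macrophage markers was 2057 to 2797 in plasma cells, against 3725 to 5671 in B cells. It rested on Lyz2, without which it was 1587 to 1921 in plasma cells, against 1195 to 1543 in B cells. Of these 8 markers 1 was called higher, Cd68 (1.75), and 3 lower, with a median log2 fold change of 0.06. The part of such cells in these values was not tested.

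Over the 8 lists of related genes 15 of 83 measured genes were called higher (18.1%) and 14 lower (16.9%), where 16.6% and 11.4% of all genes were. Without B cell array 1 they were 20 and 24, where the calls over all probe sets rose as well, to 8155 higher and 9331 lower. In the lists 8 were called lower without B cell array 2 and 9 without either plasma cell array 1 or 2.

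**Figure D4:**
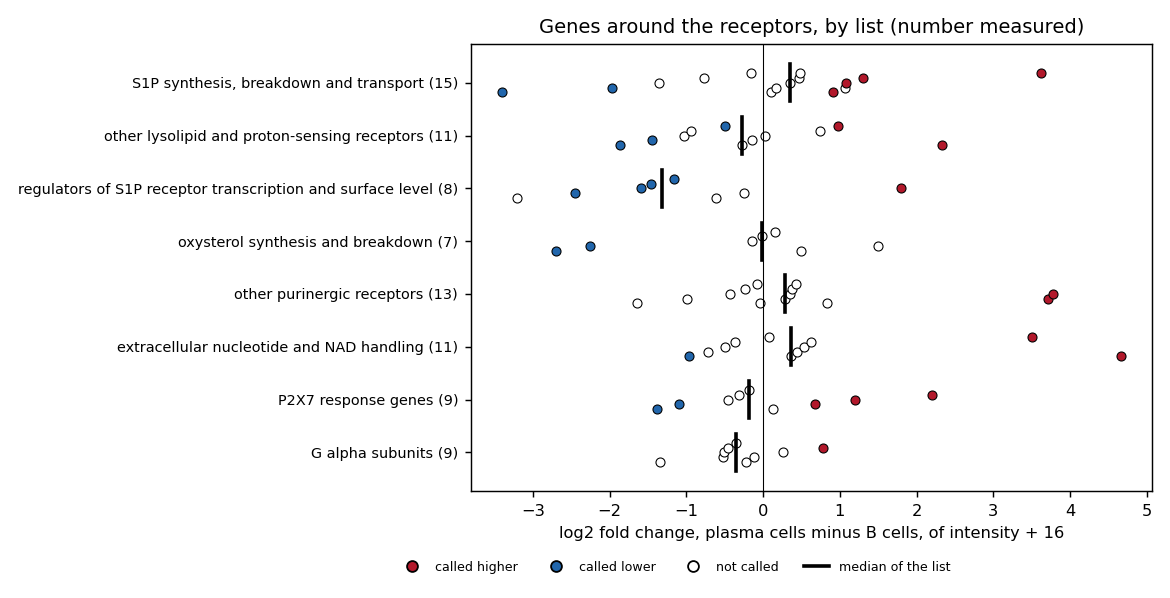
The log2 fold change of intensity + 16, plasma cells minus B cells, for each measured gene of the 8 lists (brightest probe set per gene), with a black bar at each list's median; red is called higher, blue called lower and white not called. Ada (4.67), P2ry14 (3.78), P2rx3 (3.71), Sgpp2 (3.62) and Entpd1 (3.50) lie farthest to the right and Plpp3 (-3.41) and Klf2 (-3.21, not called) farthest to the left.

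The genes whose pattern over the 6 arrays was most like that of each receptor were found among 13636 genes over background on at least 3 arrays, by the root mean square difference of log2 values centred on each gene's mean. Over 6 arrays in 2 groups this reflects mainly a similar size of the group difference. For S1pr1 they were Rasgef1b (0.13) and Crip3 (0.18), for S1pr2 Mzt2 (0.06) and Bag3 (0.11), and for S1pr3 Clcf1 (0.09) and Il21r (0.11). S1pr4 was nearest to Gngt2 (0.06) and Fmnl1 (0.07), Gpr183 to Ms4a7 (0.06) and Irak3 (0.08), and Gpr174 to Sesn3 (0.08) and Gch1 (0.11). The nearest to Gpr132 were Taf1a (0.06) and Slc15a4 (0.08), to P2ry10 Zadh2 (0.08) and Zfp809 (0.08), and to P2rx4 Inpp4a (0.04) and Sft2d2 (0.04). P2rx7, which was not called, was nearest to Smc1b (0.10) and to Zap70 (0.11), a T and NK cell marker that like it was highest on B cell array 1.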

How the data were processed

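The deposited table held 1 intensity per probe set and array on a linear scale, and the authors' probe summary, background correction and normalization are not given in the sources used here. Per the labels' protocols, RNA was amplified (NuGEN Ovation V2) before it was biotin-labelled. After 64 control probe sets were left out, 45037 were tested as log2(intensity + 16), plasma cells minus B cells, in limma 3.58.1 (R 4.3.3), by eBayes moderation with no trend, and Benjamini-Hochberg adjustment over all of them. The platform annotation of 2016 gave 1 symbol for 34945 probe sets, and 34741 were matched by Entrez identifier to the RefSeq table of GRCm38.p6. No receptor symbol was in a probe set with several symbols. Related genes were represented by their brightest probe set over the 6 arrays. The script was tested on simulated data. Receptors, lists and tests were chosen with earlier results of these data known. From each list the text names up to 2 called genes at each end and 10 genes fixed by name, and 1 further item is not reported here. Asah1, Asah2, Sphk2, S1pr5, Grk6, Arrb1, Lpar6, Nek7, Gpr18, Itm2a, Lpar4, Camkk2, Cd68, Lyz2, Mpo, Csf3r, Kdm5d and Xist were chosen after their values were seen. In all 17 alternative settings were run.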

Additional observations from a re-analysis of the deposited data

How the results depend on the processing

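Every receptor probe set called by limma kept its direction in all alternatives run on it, and the calls lost were those of P2ry10 after median centring and of P2rx4 probe set 1441772_at. Receptor calls were 2 higher and 7 lower both with 1 brightest probe set per gene and with the mean of a gene's probe sets, since fewer features were tested. Over all probe sets 9645 were called higher and 11396 lower with array weights, in which B cell array 1 weighed 0.106. The counts were 3193 and 2246 with the brightest probe set per gene, 3010 and 2344 with the mean of probe sets, and 3521 lower after median centring. Leaving out 1 array gave 4012 (without plasma cell array 1) to 8155 (without B cell array 1) higher and 3236 to 9331 lower, by the same arrays, and 3372 lower without plasma cell array 2. In the 8 lists array weights called 24 genes higher and 28 lower, and leaving out 1 array gave 11 to 20 higher and 8 (without B cell array 2) to 24 (without B cell array 1) lower. The cause of these shifts was not tested.

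Uncalled genes changed sign. With 1 array left out, the log2 fold change ran from -0.049 to 0.13 for P2rx4 probe set 1446429_at, from -0.027 to 0.27 for Sgpl1, from -0.34 to 0.17 for Cyp7b1 and from -0.89 to 0.11 for Nt5e. Array weights gave 0.22 for Cyp7b1 and 0.049 for Nt5e, and quantile normalization gave 0.025 for Cyp7b1.

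Whether the replicate numbers pair the samples is not stated in the labels. Same-numbered deviations from the group mean correlated at 0.0495, 0.0032 and 0.0529. Plasma cell arrays 1 and 3 correlated best with their own number, and plasma cell array 2 did not. With 3 arrays a group, each centred on its group mean, these values cannot decide whether the samples were paired. With a replicate block 4516 probe sets were called higher and 4140 lower, 4 receptor probe sets higher and 11 lower, and 13 and 11 list genes. Signal within background limits what can be said of 1 probe set each of S1pr3 and P2rx7 in both groups.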
